A study of Ziziphus jujuba with 15 samples.

Results

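The comparison described here sets 5 days of heat stress against 1 day in leaves of the jujube (Ziziphus jujuba) cultivar ‘HS’, which is heat-sensitive. It rests on 6 of the 15 RNA-Seq libraries of the series, namely 3 labelled 5 d (replicates a, b and c) and 3 labelled 1 d, and on all 32876 genes of the expression table. Of these, 19550 genes reached 1 FPKM (reads of a gene scaled to its exon length and to the mapped reads of the library) in at least 3 of the 12 libraries at 0, 1, 3 and 5 d and were tested. Potted seedlings had been raised at 30 °C in the light period and 20 °C in the dark, and were then held at 45 °C for 14 hours of each day. The leaves at 1 d and at 5 d therefore share cultivar, leaf position and temperature, and differ in how many days the heat had been repeated. Unheated leaves were sampled only at 0 d, so days of heat cannot be told apart from plant age and day of harvest. The 1 d leaves were already stressed, so a difference between 5 d and 1 d says how the transcript levels moved after the first day and not how far they stood from unstressed leaves, for which the values at 0 d are given beside it. No transgene or allele is involved. Each library stands for leaves of 6 randomly chosen plants. The labels speak of RNA of replicates joined before library construction, while the study's methods describe independent replicates, so the p-values measure the spread between these libraries, which may be technical. More RNA of a gene per cell and a larger share of cells that express it cannot be told apart in whole leaves.

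Heat unfolds proteins, and plant cells answer with heat shock transcription factors (HSFs) that switch on genes of heat shock proteins (HSPs): the small HSPs hold unfolded proteins, the HSP70 and HSP90 families refold them, and the ClpB family pulls aggregates apart. Chloroplasts are among the most heat-sensitive parts of a leaf cell. Their light-harvesting proteins, encoded in the nucleus, bind chlorophyll and feed both photosystems, and damaged thylakoid proteins are removed by proteases of the chloroplast such as the FtsH family. Days of heat also bring water loss, to which leaves respond through abscisic acid, a hormone that acts by way of protein phosphatases 2C and induces proteins that protect cells from drying.

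The leaf label was checked against photosynthetic genes, which were among the most abundant. The 12 antenna protein genes were summed at 25918 to 26377 FPKM in the 1 d libraries and at 11897 to 16178 FPKM in the 5 d libraries, and the 28 tested genes of the photosynthesis list at 30305 to 31826 and 18515 to 19701 FPKM. At 0 d these sums were 9393 to 17225 and 21462 to 24888 FPKM. The number of genes at 1 FPKM or more was the same at both days within the spread, namely 17798 ± 207 (mean and SD of 3 libraries) at 1 d and 17781 ± 17 over the 3 libraries of 5 d (exact permutation test, two-sided, p = 0.9). The 100 most abundant genes held 28.0% ± 0.654 of all FPKM at 1 d and 22.6% ± 0.233 at 5 d, without overlap (exact permutation test, p = 0.1, the smallest that 3 against 3 allow). Replicates b and c of a day resembled each other more than either resembled a: Pearson's r of log2 values over genes was 0.968 between b and c at 1 d and 0.965 at 5 d, 0.935 to 0.945 between a and the others within a day, and 0.904 to 0.930 between the days.

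After 5 d of heat, 196 genes were higher and 165 genes lower than after 1 d, by at least 2-fold and at an adjusted p of 0.01 or less (limma on log2(FPKM + 1), Benjamini-Hochberg over all genes tested), which is 1.00% and 0.844% of the genes tested and 1.85% in all. Among these called genes the rises reached further than the falls: 59 rose and 28 fell by 4-fold or more, and 16 rose and 7 fell by 8-fold or more. Without the limit on adjusted p, 689 tested genes rose and 781 fell by 2-fold or more. Among all 19550 genes the median difference was 0.07 on the log2 scale. In all 361 genes the 3 libraries at 5 d lay on one side of the 3 at 1 d, a separation that 23.0% of all tested genes showed upwards and 13.7% downwards. These counts depend on single libraries. They were 75 and 47 without replicate b at 1 d, 74 and 43 without c at 1 d, 61 and 42 without b at 5 d and 62 and 40 without c at 5 d, and rose to 298 and 313 without a at 5 d. When b and c were averaged into 1 value per day, no gene passed, the smallest adjusted p was 0.0142, and 2599 genes had an unadjusted p under 0.05. The direction of the difference held in every one of these fits for all 361 genes that were still tested, but the lack of overlap fixed this in advance. In each of the 6 fits that left out 1 of the 6 libraries, 51 higher and 32 lower genes passed. For the genes named here, the text says where a gene is one of those.

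**Figure D1:**
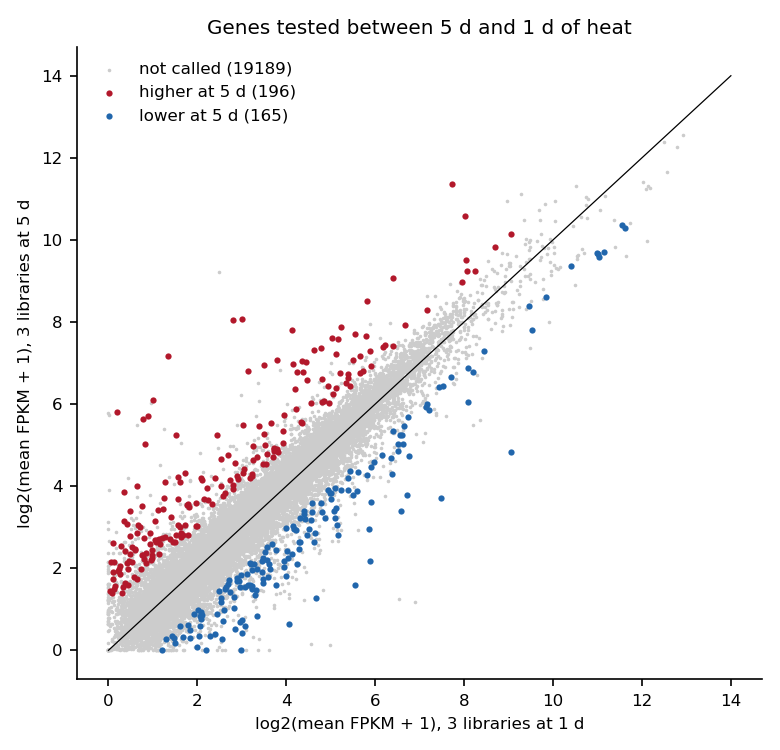
Mean expression of each of the 19550 tested genes at 1 d (x axis) and 5 d (y axis), both as log2(mean FPKM + 1) over 3 libraries. Points above the diagonal are higher at 5 d; the 196 red and 165 blue genes passed both thresholds, and most of the other genes lie along the diagonal.

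Among the described heat shock proteins, 2 small HSPs rose the most. The transcript of a small HSP of the chloroplast (gene28274) stood at 38.0, 19.6 and 22.2 FPKM in replicates a, b and c at 1 d and at 207, 148 and 141 FPKM at 5 d, a 6.19-fold difference (log2 2.63 ± 0.261 SE, adjusted p = 0.000628), from 2.97 to 4.63 FPKM before heat. A class IV small HSP (gene16134), of a class located in the endoplasmic reticulum, had 71.3, 50.8 and 42.0 FPKM at 1 d and 167, 215 and 223 FPKM at 5 d (3.70-fold, log2 1.89 ± 0.213 SE, adjusted p = 0.000922). Both passed in all 6 fits with 1 library left out, and in both every 5 d library was more than 2 times its highest 1 d library. Another gene described as a chloroplast small HSP (gene19985) was at 111 to 164 FPKM at 1 d and 162 to 198 FPKM at 5 d. It was 1.36-fold higher and not called (adjusted p = 0.18). HSP83 (gene21597), a chaperone of the HSP90 family, was at 76.5, 54.3 and 45.2 FPKM at 1 d and 110, 124 and 127 FPKM at 5 d, 2.08-fold higher (log2 1.05 ± 0.176 SE, adjusted p = 0.00564), and passed in 2 of the 6 fits. This gene had been at 0.349 to 0.621 FPKM at 0 d, so that the first day had raised it by far more, in fold, than the days after.

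A further small HSP named by the study, HSP16.9 (gene6564), has no product description in these tables and is not counted in the described family. It stood at 33.8, 31.3 and 31.1 FPKM at 1 d and at 58.3, 81.4 and 84.7 FPKM at 5 d, 2.26-fold higher (log2 1.18 ± 0.215 SE, adjusted p = 0.00825), and passed in 1 of the 6 fits. Other called genes without a description share lists with described chaperones. The terms of gene4042 are those of the HSP70 genes gene2890 and gene2891. It rose from 88.0 to 124 FPKM to 215 to 297 FPKM (2.41-fold, adjusted p = 0.00941, 0 of the 6 fits). Like HSP83, gene21598 is in the endoplasmic reticulum and plant-pathogen lists. It rose from 1.64 to 1.69 FPKM to 7.55 to 9.42 FPKM (3.55-fold, adjusted p = 0.000496, all 6 fits).

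Most of the described chaperone genes were not called. Of 24 tested genes described as heat shock proteins or chaperones, 3 rose, 2 fell and 19 were not called (20.8% called, against 1.85% of all genes). The median log2 difference was 0.37 against 0.07 over all genes. These descriptions come from the study's tables of regulated genes, so the family is not independent evidence of a direction. The HSP70 genes gene15133 and gene2890 were 1.85-fold and 1.88-fold higher (adjusted p = 0.03 and 0.0102). Another HSP70 gene, gene2891, was 1.07-fold higher (adjusted p = 0.936), with 7.65, 63.1 and 16.0 FPKM at 5 d. ClpB1 (gene11408) was 1.54-fold higher (adjusted p = 0.0732). Of the DnaJ-type co-chaperones, gene1686 (LOC107425032) and gene20820 were 2.06-fold and 1.92-fold higher (adjusted p = 0.0272 and 0.26). The DnaJ-type gene15341 and gene19164 differed by 0.02 and -0.02 on the log2 scale. For the cytosolic 17.9 kDa class II HSP (gene12300), which stood at 72.9 to 106 FPKM at 1 d and at 107 to 108 FPKM at 5 d, the difference was 0.33 on the log2 scale. A BAG family co-chaperone (gene15604), 205 to 298 FPKM at 1 d from 4.57 to 5.61 FPKM before heat, spread over 150 to 343 FPKM at 5 d and overlapped its 1 d range.

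Against the family, 2 members fell. The 15.4 kDa class V HSP (gene1248) dropped from 45.7, 67.8 and 64.4 FPKM at 1 d to 20.3, 21.4 and 21.6 FPKM at 5 d (2.69-fold lower, log2 -1.43 ± 0.16 SE, adjusted p = 0.000922). Unstressed leaves had 67.3 to 83.0 FPKM of it, a range that overlapped that of 1 d. The other, gene12412, is described as a DnaJ homolog by one source and as a RADIALIS-like protein, a small MYB-related transcription factor, by another. It went from 5.18, 11.0 and 11.3 FPKM to 1.29, 0.446 and 0.591 FPKM (log2 -2.48 ± 0.305 SE, adjusted p = 0.00138). Both genes passed in all 6 fits.

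None of the 6 tested genes of the HSF family list was called, while all 6 had a difference above 0, with a median of 0.57. The nearest to the thresholds was a gene of the HSFA2 type (gene15982), in Arabidopsis a factor that sustains the response to repeated heat, at 2.86, 1.99 and 1.73 FPKM at 1 d and 5.22, 7.27 and 7.17 FPKM at 5 d (2.37-fold, adjusted p = 0.0136). The repressor-type HSFB-2b (gene21394) was at 11.5 to 13.6 and 16.5 to 26.9 FPKM (adjusted p = 0.0557), and HSFC-1 (gene23144) at 37.9 to 53.4 and 49.9 to 75.9 FPKM (adjusted p = 0.287). A further HSFA2-like gene (gene12331), which is not in that list but among the 24 described genes above, was at 19.3 to 20.9 and 21.5 to 40.1 FPKM and was not called either (adjusted p = 0.0727). In each of these 4 genes replicate a was the lowest of the 5 d libraries.

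**Figure D2:**
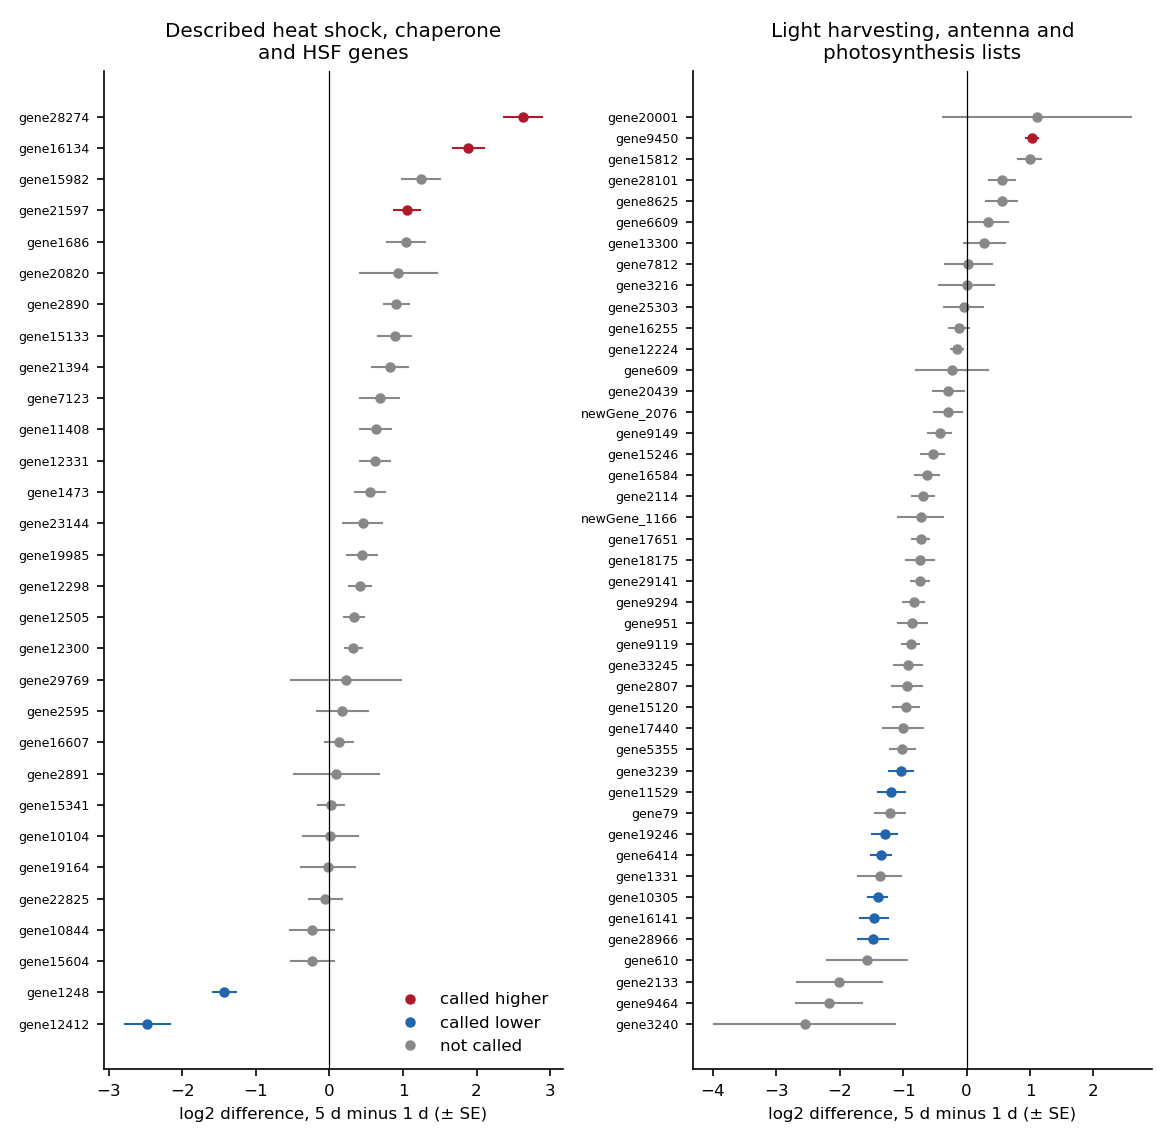
Log2 difference, 5 d minus 1 d, of each tested gene (points, with bars of ± 1 SE from limma) for genes described as heat shock proteins, chaperones or HSFs (left) and for the light harvesting, antenna and photosynthesis lists (right). On the left 3 genes were called higher (red) and 2 lower (blue), and the 6 genes of the HSF list are grey and right of 0; on the right the called genes, except gene9450, are lower.

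The lists for protein quality control lay above the median of all genes. These lists, and all pathway lists below, hold the genes that the study's enrichment tables give for the second, heat-tolerant cultivar, whose libraries are not part of the table used here. They are genes that the study called regulated by heat there, so a share called above that of all genes is not evidence about a pathway. In the protein folding list 5 of 23 tested genes rose and none fell, with a median of 0.81, and in the list for response to hydrogen peroxide 3 of 12 rose, with a median of 0.91 and all 12 above 0. The response to heat list had 4 of 33 genes higher and 30 above 0, with a median of 0.51. These 3 lists overlap in their called genes: FTSH 6 (gene28637), gene8137 and gene17986 belong to each of them. Of 55 tested genes of protein processing in the endoplasmic reticulum, 8 rose and 1, the class V HSP above, fell (16.4% called, against 1.85% of all genes). The count of rises was 3 without b or c at 1 d or without c at 5 d, and 1 when the 7 d libraries joined the fit. In that fit of 15 libraries the 5 rises of protein folding, the 4 of response to heat and the 3 of response to hydrogen peroxide were all lost (0 in each list). The within-letter medians of the protein folding list were 0.41, 1.02 and 0.85 for a, b and c, so that replicate a showed the smallest shift.

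FTSH 6 (gene28637), a thylakoid metalloprotease, was at 18.9, 16.2 and 15.5 FPKM at 1 d and at 82.7, 144 and 150 FPKM at 5 d, 6.86-fold higher (log2 2.78 ± 0.265 SE, adjusted p = 0.000549). The unannotated gene8137 followed the same course, from 18.5 to 20.9 FPKM up to 97.1 to 120 FPKM (log2 2.41, adjusted p = 0.000911). EGY3 (gene25399), a homolog of zinc metallopeptidases of the chloroplast, went from 35.2 to 60.6 FPKM to 124 to 141 FPKM (log2 1.61, adjusted p = 0.00387); both genes fell outside the naming rule and are given because they complete the count of 5. A second EGY3 gene (gene26529), also chosen after its values were seen, was at 64.3 to 95.6 FPKM at 1 d and at 56.5 to 81.4 FPKM at 5 d, and was not called (adjusted p = 0.943). TIC 55 (gene12111), a part of the protein import machinery of the inner envelope, was at 25.1, 19.3 and 19.0 FPKM at 1 d and 63.3, 112 and 109 FPKM at 5 d (4.23-fold, log2 2.08 ± 0.206 SE, adjusted p = 0.000628). At 0 d it had been at 60.8 to 63.4 FPKM, so the 1 d libraries were the low ones. FTSH 6 and TIC 55 passed in all 6 fits.

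The ubiquitin-conjugating enzyme E2 28 (gene22795), which carries ubiquitin to proteins marked for breakdown, was among the most abundant of the up-regulated genes, at 559, 496 and 539 FPKM at 1 d and 1098, 1094 and 1175 FPKM at 5 d (2.11-fold, log2 1.08 ± 0.119 SE, adjusted p = 0.000914, all 6 fits). Of 21 tested genes described as ubiquitin-related it was the only one called (4.76%). Of 32 genes of ubiquitin-mediated proteolysis 2 rose and 1 fell, with a median of 0.08. The share called, 9.38% against 1.85% of all genes, is that of a list taken from heat-regulated genes. The ligases ARI1 (gene12473), FANCL (gene16809) and RMA1H1 (gene27326) were 1.40-fold, 1.33-fold and 1.06-fold higher, none of them called. A stress-associated protein with A20 and AN1 zinc fingers (gene10053) stood at 1027 to 1093 FPKM at 1 d and 1731 to 2140 FPKM at 5 d, an adjusted p of 0.00387 with a fold change of 1.85 that is under the limit of 2.

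The next genes were named singly, for the size of their rise or by the study, and not as members of a list. A pair of genes of the ATHB-7 type, homeodomain-leucine zipper factors that abscisic acid and drought induce in Arabidopsis, were both called: gene15581 went from 33.8, 31.7 and 36.1 FPKM to 128, 161 and 158 FPKM (4.28-fold, log2 2.10 ± 0.394 SE, adjusted p = 0.00951), and gene21484 from 0.673, 0.685 and 0.726 FPKM to 5.80, 14 and 11.3 FPKM (6.37-fold, adjusted p = 0.00267). A protein phosphatase 2C (gene21562, PP2C 8) rose from 0.444, 0.310 and 0.284 FPKM to 2.38, 9.71 and 10.1 FPKM (log2 2.46 ± 0.444 SE, adjusted p = 0.00793), and the HVA22-like gene10393, of a family first known as induced by abscisic acid in barley, from 2.01 to 4.34 FPKM to 13.2 to 19.4 FPKM (log2 2.12 ± 0.372 SE, adjusted p = 0.00704). In these genes every 5 d library exceeded every 1 d library, and replicate a was the lowest of the 5 d libraries. The calls were fragile: gene15581 passed in none of the 6 fits with a library left out, gene21562 and gene10393 in 1 and gene21484 in 2. The NAC factor of the NAC72 type (gene29940), a drought-induced gene in Arabidopsis, was at 6.97 to 7.46 FPKM at 1 d and at 18 to 21.6 FPKM at 5 d and was not called (adjusted p = 0.161).

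In the list for response to water deprivation, 4 of 36 tested genes rose (11.1%, against 1.00% of all genes) and none fell, with a median of 0.20. The 2 largest rises of the list are a pair with nearly equal values, gene24479 and gene28204, whose reads could have been split between near-identical copies, so their separate levels are uncertain. The first was at 4.12, 7.09 and 6.75 FPKM at 1 d and 188, 303 and 298 FPKM at 5 d, 37.6-fold higher (log2 5.23 ± 0.472 SE, adjusted p = 0.000496, all 6 fits). Unstressed leaves had 196 to 256 FPKM of it, so that the 5 d libraries stood near the level before heat and the 1 d libraries far below. The other 2 genes of the count, gene23624 and gene4580, named after their values were seen, went from under 1 FPKM to 3.02 to 4.82 and 2.82 to 6.41 FPKM. In hormone signalling, a list likewise taken from heat-regulated genes, 5 of 64 genes rose and none fell (7.81% called, against 1.85% of all genes). The median of the list was -0.18. The largest rise of that list was gene3897, from 18.6, 27.6 and 25.3 FPKM to 108, 180 and 187 FPKM (6.32-fold, adjusted p = 0.00225), and auxin response factor 5 (gene12590), a transcription factor of auxin signalling, rose 2.56-fold from 5.91 to 6.95 FPKM to 15.9 to 20.3 FPKM.

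Expansin-like B1 (gene21764), of a family that loosens cell walls, was at 5.92, 15.8 and 16.6 FPKM at 1 d and 107, 148 and 144 FPKM at 5 d, 10.5-fold higher (log2 3.39 ± 0.385 SE, adjusted p = 0.000954). Its 3 d libraries were still at 6.89 to 8.85 FPKM. Peroxidase 4 (gene28590), of the secreted peroxidases that act in the cell wall, rose from 16.6 to 18.1 FPKM to 44.1 to 100 FPKM (4.20-fold, adjusted p = 0.00143), but was already at 76.9 to 93.4 FPKM at 3 d. Both passed in all 6 fits.

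The most abundant of the up-regulated genes was gene23606, placed under galactose metabolism: it stood at 243, 204 and 188 FPKM at 1 d and at 2136, 2903 and 2879 FPKM at 5 d, 12.4-fold higher (log2 3.63 ± 0.454 SE, adjusted p = 0.00154). An L-gulonolactone oxidase-like gene (gene15750), whose animal relatives make ascorbate, rose from 10.2 to 10.5 FPKM to 41.6, 159 and 166 FPKM (9.20-fold, adjusted p = 0.00665, 1 of the 6 fits), with replicate a far below b and c. Of 19 tested genes of arginine and proline metabolism 2 rose and 1 fell (15.8% called, against 1.85% of all genes). Its gene6022, also under amino acid biosynthesis, went from 51.2, 29.7 and 29 FPKM to 160, 276 and 273 FPKM (6.33-fold, log2 2.66 ± 0.288 SE, adjusted p = 0.000914, all 6 fits), gene15799 from 46.7 to 53.2 FPKM to 116 to 159 FPKM (2.85-fold, adjusted p = 0.00307), and gene9018 from 5.41 to 8.54 FPKM down to 1.81 to 2.69 FPKM. In starch and sucrose metabolism 3 of 61 genes rose and 3 fell (9.84% called, against 1.85% of all genes), with a median of -0.24. Among them gene18014, placed under sucrose metabolism, fell from 315 to 388 FPKM to 140 to 184 FPKM (adjusted p = 0.00405).

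Further transcription factors among the rises were weakly expressed. The nuclear factor Y subunit A gene gene23600, which codes for the DNA-binding subunit of the CCAAT-box factor, rose from 0.517, 0.474 and 0.689 FPKM to 4.17, 7.26 and 7.50 FPKM (4.58-fold, log2 2.20 ± 0.215 SE, adjusted p = 0.000628), and a CCCH zinc finger gene (gene26507) from 1.87 to 1.98 FPKM to 6.98 to 14.7 FPKM (4.21-fold, adjusted p = 0.000922). Both passed in all 6 fits. By family, none of 18 ERF, 12 MYB, 17 zinc finger and 6 bHLH genes taken from the study's transcription factor tables was called, 1 of 11 NAC genes rose (gene7895, 2.76-fold) and 1 of 5 WRKY genes fell. Beside these counts, 1.00% of all tested genes were higher and 0.844% lower, and in families this small 1 call is given as a value only. Of the 15 transcription factors that the study lists as common to its comparisons of 1, 3 and 5 d with 0 d in ‘HS’, 14 were tested. The values of the ethylene-responsive factors RAP2-4 (gene28694, 164 to 238 FPKM at 1 d and 165 to 250 FPKM at 5 d) and RAP2-12 (gene2565, 169 to 325 and 133 to 206 FPKM) overlapped between the days. Others of the 14 did not overlap and were not called. Examples are bHLH48 (gene23643, 21.7 to 28.5 and 15.2 to 16.5 FPKM, adjusted p = 0.0514) and bHLH35 (gene128, 27.7 to 39.6 and 44.8 to 48.1 FPKM, adjusted p = 0.569).

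**Figure D3:**
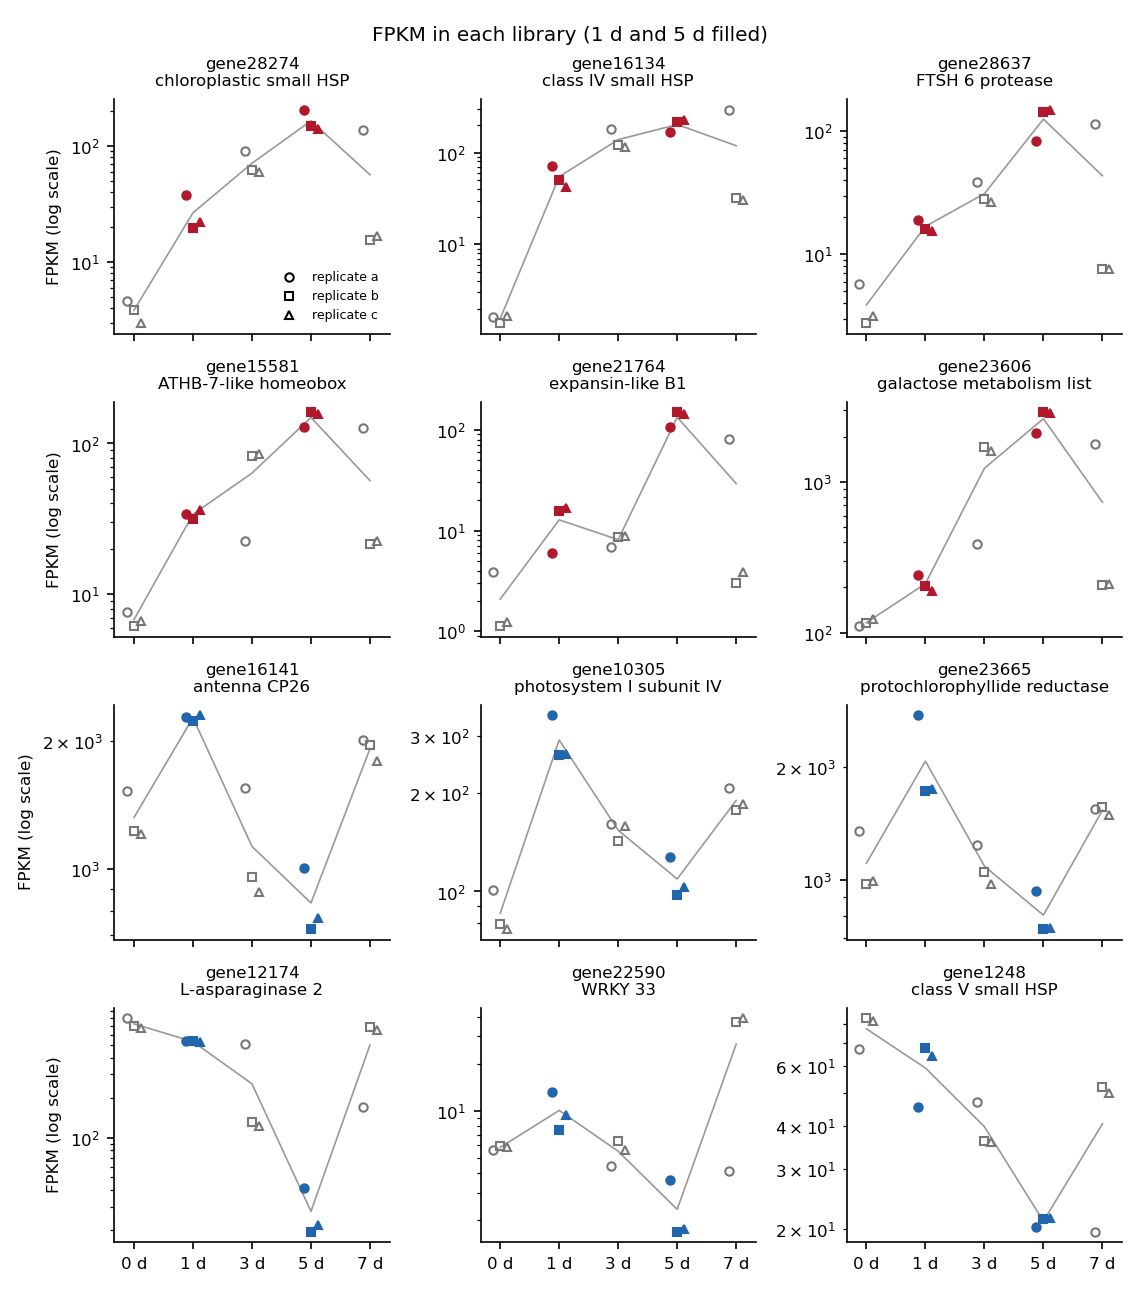
FPKM (log scale) of 12 named genes in each of the 15 libraries, by days of heat; circles, squares and triangles are replicates a, b and c, filled at 1 d and 5 d, and lines join the means. In the upper 6 genes the 5 d libraries are above the 1 d libraries and in the lower 6 below; at 7 d replicate a lies above b and c in each of the upper 6.

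Most genes of the light-harvesting antennae and photosystems were lower at 5 d than at 1 d. In the light harvesting list 4 of 14 tested genes fell (28.6%, against 0.844% of all genes) and none rose. However, 4 lay above 0, up to 0.99 on the log2 scale, and 1 was called higher with a pseudocount of 0.1. The median was -1.06, and the same median was -1.06, -1.10 and -1.05 within the letters a, b and c. The summed level of these genes was 34619 ± 1560 FPKM (SD, n = 3) at 1 d, and 5 d reached 49.1% of this with 17006 ± 1470 FPKM (SD, n = 3). Unstressed leaves had 27172, 20043 and 15833 FPKM in replicates a, b and c. The 1 d libraries were thus the high ones, and the 5 d libraries (15398 to 18268 FPKM) overlapped those of 0 d. Of 13 genes described as photosystem or chlorophyll proteins, 7 fell (53.8%, against 0.844% of all genes) and all 13 had a difference below 0, with a median of -1.29. However, this family again comes from tables of genes the study called regulated. In the photosynthesis list 2 of 28 fell, 1 rose and 4 lay above 0, with a median of -0.72 (10.7% called, against 1.85% of all genes). In the antenna list 2 of 12 fell (16.7%) and 4 lay above 0. The medians of these 4 groups were below that of all genes with every letter, but the single calls were few when libraries were left out: the 4 of light harvesting became 1 with quantile normalization and 0 in 5 of the 6 fits, and the 7 became 1 or 2 in 5 of them.

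An antenna gene with no symbol in these tables (gene6414) had 2808, 3329 and 3326 FPKM at 1 d and 1105, 1291 and 1333 FPKM at 5 d, 2.54-fold lower (log2 -1.34 ± 0.159 SE, adjusted p = 0.0012, all 6 fits). CP26, a monomeric antenna protein of photosystem II, is represented by a pair of genes with similar values, gene16141 and gene28966, between which reads could have been shared. The former was at 2272, 2222 and 2291 FPKM at 1 d and 1008, 725 and 768 FPKM at 5 d (2.74-fold lower, log2 -1.46 ± 0.221 SE, adjusted p = 0.00369), against 1210 to 1524 FPKM in unstressed leaves. Every 1 d library thus stood above every 0 d library, and every 5 d library below. CP24 (gene19246), a further monomeric antenna protein, fell from 1995 to 2053 FPKM to 763 to 874 FPKM (adjusted p = 0.00404), and the chlorophyll a-b binding protein P4 (gene11529), of the photosystem I antenna, from 2882 to 3078 FPKM to 1236 to 1392 FPKM (2.27-fold, adjusted p = 0.00767, in none of the 6 fits).

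Photosystem I subunit IV (gene10305), on the stromal side of the complex, had 347, 263 and 265 FPKM at 1 d and 127, 97.8 and 103 FPKM at 5 d (2.65-fold lower, log2 -1.40 ± 0.151 SE, adjusted p = 0.000911, all 6 fits), with 76.8 to 101 FPKM before heat. The light-dependent protochlorophyllide reductase (gene23665), an enzyme of chlorophyll synthesis, fell from 2745, 1731 and 1744 FPKM to 934, 742 and 745 FPKM (2.52-fold, log2 -1.33 ± 0.216 SE, adjusted p = 0.00493). It was the only one of 20 tested genes of porphyrin and chlorophyll metabolism to be called. An exception in the photosynthesis list was gene9450, also placed under nonphotochemical quenching: it rose from 254, 238 and 244 FPKM to 489, 493 and 521 FPKM (2.04-fold, log2 1.03 ± 0.0938 SE, adjusted p = 0.000496), and had been at 120 to 143 FPKM at 0 d. Its log2 difference was 0.94 with median-of-ratios scaling and 0.92 with quantile normalization, under the 2-fold limit.

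The steepest fall among described genes was that of L-asparaginase 2 (gene12174), an enzyme that releases ammonium from asparagine. It was at 535, 533 and 523 FPKM at 1 d and 41.8, 19.4 and 21.8 FPKM at 5 d, 19.6-fold lower (log2 -4.29 ± 0.47 SE, adjusted p = 0.000914, all 6 fits). At 3 d replicate a was still at 511 FPKM while b and c were at 131 and 121 FPKM. The glutathione metabolism gene gene24003 fell 13.5-fold, from 103, 212 and 217 FPKM to 17.2, 10.3 and 8.53 FPKM (adjusted p = 0.00185), and the unannotated gene9197 11.8-fold, from 113, 32.3 and 29.5 FPKM to 6.42, 1.95 and 2.21 FPKM (adjusted p = 0.00223).

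The other named falls were single genes. In the list for plant-pathogen interaction 3 of 40 genes rose and 1 fell (10.0% called, against 1.85% of all genes), with a median of -0.14. The MLP-like protein 43 (gene20791), of the major latex protein family, fell from 154, 65.2 and 67.0 FPKM to 16.0, 5.93 and 6.85 FPKM (9.09-fold, adjusted p = 0.00307). WRKY33 (gene22590), a regulator of pathogen defence in Arabidopsis, was at 13.2, 7.52 and 9.44 FPKM at 1 d and at 3.60, 1.68 and 1.74 FPKM at 5 d (3.34-fold lower, adjusted p = 0.0024), and at 4.11, 37.0 and 39.1 FPKM in replicates a, b and c of 7 d. Dirigent protein 4 (gene19174), of a family that steers the coupling of lignan precursors, fell from 32.5 to 37.3 FPKM to 5.46 to 8.44 FPKM (4.27-fold, adjusted p = 0.00176, 5 of the 6 fits), and a GDSL esterase/lipase (gene2385) from 10.8 to 18.4 FPKM to 1.55 to 4.17 FPKM (4.72-fold, adjusted p = 0.0024). The seed maturation protein PM36 (gene11302) had the tightest difference of the named falls, from 14.2, 14 and 15.5 FPKM to 3.62, 3.32 and 3.64 FPKM (3.43-fold, log2 -1.78 ± 0.114 SE, adjusted p = 8.33e-05, all 6 fits). A bZIP transcription factor (gene11303) was at 77.6 to 96.7 FPKM at 1 d and 30.7 to 32.3 FPKM at 5 d, but far below both, at 1.82 to 2.76 FPKM, before heat.

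In the lists for auxin, flavonoids and alpha-linolenic acid no more than 1 gene was called in either direction. The shares called were 11.8%, 4.76% and 10.5%, against 1.85% of all genes, in small lists taken from heat-regulated genes. In the auxin list, with a median of -0.42 over 17 genes, gene15775 fell 4.22-fold from 290, 250 and 269 FPKM to 42.9, 78.6 and 74.5 FPKM (adjusted p = 0.00303), the only fall there. Of 21 flavonoid genes 1 fell, gene19560, from 6.64 to 11.2 FPKM to 1.25 to 2.34 FPKM (3.61-fold, adjusted p = 0.0064), after 62.5 to 110 FPKM in unstressed leaves. In alpha-linolenic acid metabolism, from which jasmonate is made, gene5490 rose from 5.70, 0.710 and 0.517 FPKM to 29.7, 13.4 and 13.5 FPKM (adjusted p = 0.0075) and gene32667 fell from 3.97 to 5.25 FPKM to 0.974 to 1.70 FPKM (adjusted p = 0.00967). The former is a case where replicate a at 1 d stood far from b and c. An L-type lectin receptor kinase (gene18364), of a class of membrane receptors, was listed at 0 in replicate a at 1 d and at 0.0325 and 0.0797 FPKM in b and c, and reached 4.28, 2.51 and 3.56 FPKM at 5 d (adjusted p = 0.00225). The aspartic protease gene ASPG2 (gene12102) fell from 81.6 to 130 FPKM to 23.6 to 44.5 FPKM (3.07-fold, adjusted p = 0.00531), a further step down from 270 to 305 FPKM at 0 d.

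Many other lists had few or no called genes. Among the lists with medians under that of all genes and no call in either direction were cutin, suberine and wax biosynthesis (6 genes, median -0.80), nitrogen metabolism (21 genes, median -0.47), nucleosome assembly (15 genes, -0.44), water transport (18 genes, -0.42, with 17 below 0) described cytochrome P450 genes (19 genes, -0.41), carotenoid biosynthesis (10 genes, -0.26), proteasome (10 genes, -0.16), photosystem II assembly (28 genes, -0.14) and oxidative phosphorylation (21 genes, -0.10). Phenylpropanoid biosynthesis had 1 rise among 43 genes (2.33% called), the peroxidase above, and a median of -0.43. Above the median of all genes without a call were, beside the HSF list, ribosome biogenesis (12 genes, 0.47), ribosome (21 genes, 0.37), peroxisome (29 genes, 0.23), DNA replication (6 genes, 0.20), secondary cell wall biogenesis (13 genes, 0.17) and the zinc finger family (17 genes, 0.12). Carbon metabolism (61 genes, 2 lower) and carbon fixation (34 genes, 2 lower) had medians of -0.11 and -0.18. Their shares called were 3.28% and 5.88%, against 1.85% of all genes, in lists taken from heat-regulated genes. Both held gene16877, which fell 3.12-fold from 16.2 to 21.6 FPKM to 4.04 to 6.37 FPKM. For arginine and proline metabolism the sign of the median, 0.04, turned to -0.06 with quantile normalization.

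**Figure D4:**
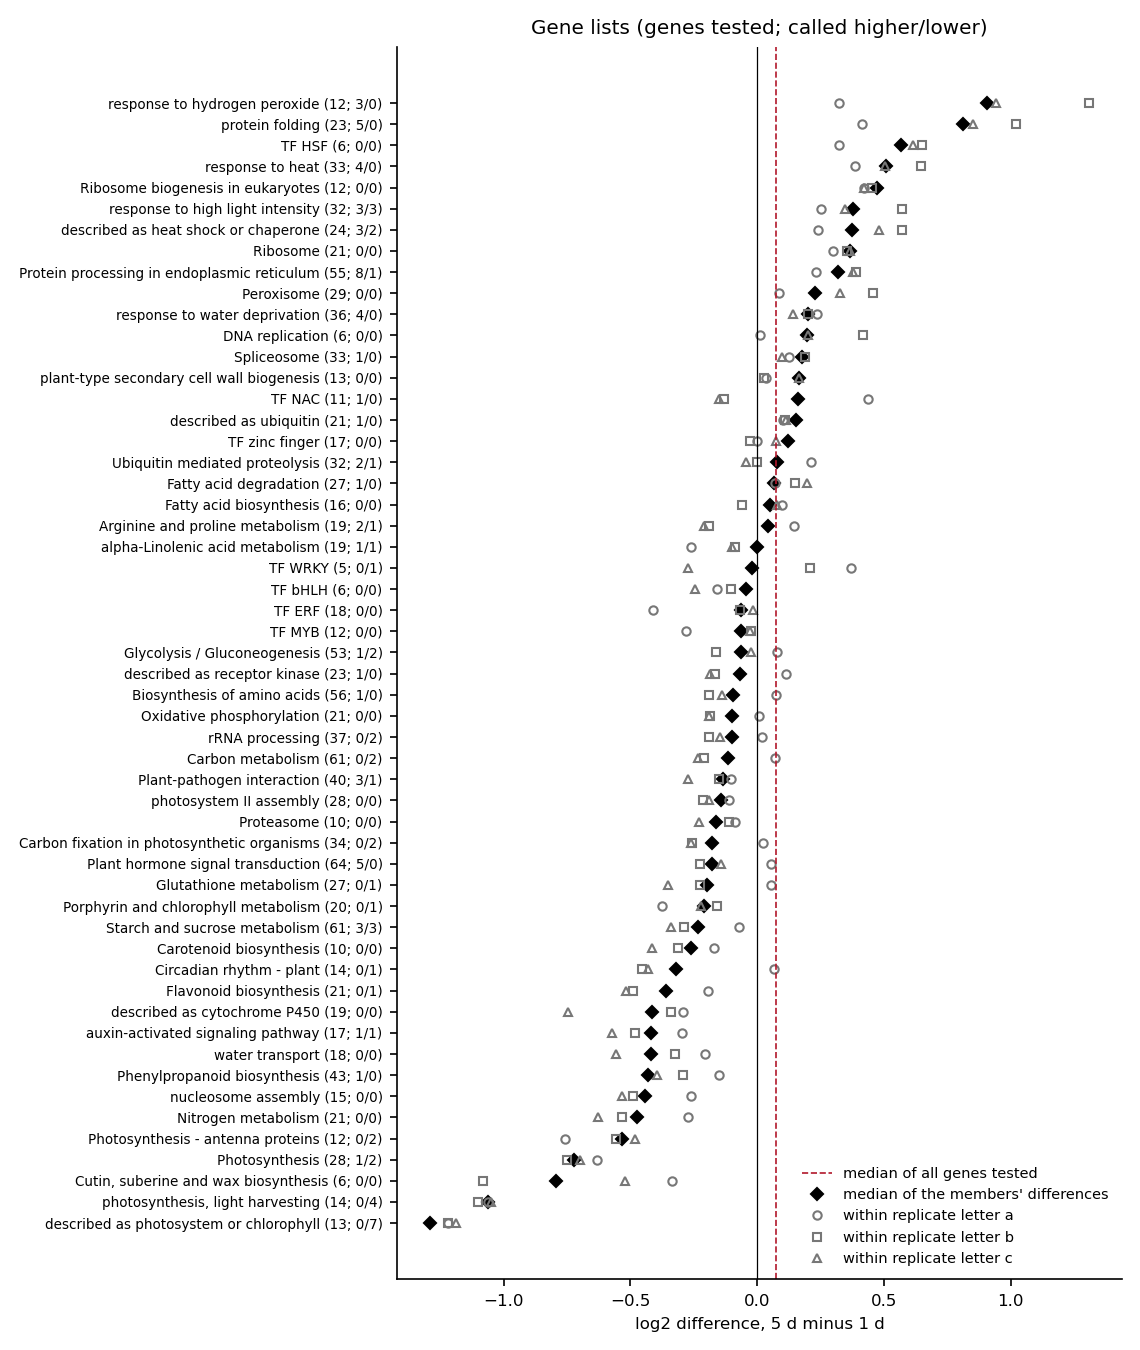
Median log2 difference, 5 d minus 1 d, of the genes tested in each list with 5 or more of them (diamonds), beside the median taken within each replicate letter (open symbols); the dashed line is the median of all genes tested (0.07). The numbers after each name are the genes tested and those called higher and lower; response to hydrogen peroxide and protein folding stand at the top and the light-harvesting groups at the bottom, where the 3 letters nearly coincide.

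The largest rises were in genes with no description. The unannotated gene13849 was at 1.76, 0.890 and 1.94 FPKM at 1 d and 32.1, 201 and 199 FPKM at 5 d, 44.4-fold higher (log2 5.47 ± 0.852 SE, adjusted p = 0.00419, 1 of the 6 fits), and gene27786 at 1.32, 0.903 and 0.767 FPKM and 81.4, 57.3 and 62.8 FPKM (34.0-fold, log2 5.09 ± 0.366 SE, adjusted p = 0.000205, all 6 fits). The latter was an abundant transcript without heat, with 756, 2110 and 2000 FPKM at 0 d. At 5 d it was thus at a small part of that level, and at 7 d replicates a, b and c had 402, 2566 and 2572 FPKM. Of the 3583 genes that the authors assembled anew and added to the table, 15 rose and 15 fell. The 3583 include genes that were not tested, so no share is set beside the 1.00% and 0.844% of all tested genes.

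The days outside the comparison place the 1 d and 5 d levels on a course. For each gene the position of a library was measured as the percentage of the way from the 1 d mean to the 5 d mean on the log2(FPKM + 1) scale, so that the 1 d mean is 0 and the 5 d mean is 100 by construction. The 196 up-regulated genes had median positions of -12.6% to -10.9% in the 3 unstressed libraries, and of 33.7%, 47.7% and 49.3% in replicates a, b and c at 3 d. The 165 down-regulated genes were at -3.07% to 1.85% at 0 d and at 45.5%, 59.7% and 59.5% at 3 d. The median gene of both sets was thus close to its 1 d mean before heat and near the middle of the way at 3 d, while single genes spread widely, with quartiles from -46.4% to 28.9% at 0 d for the up-regulated. At 7 d replicate a was at 70.8% for the up-regulated and 77.5% for the down-regulated genes, whereas b and c were at 23.1% and 23.7% and at 27.6% and 28.9%.

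Comparisons that use neither the 1 d nor the 5 d libraries were taken for the same genes. Between 3 d and 0 d the genes higher at 5 d had a median log2 difference of 0.82, with 79.6% of them above 0, and the genes lower at 5 d one of -0.82, with 81.2% below 0, beside a median of 0.12 over all genes. Between 7 d and 3 d the medians were -0.03 and 0.18, beside -0.10 over all genes. Where values are set side by side with comparisons that share the 1 d or 5 d libraries, FTSH 6 differed by 1.91 between 1 d and 0 d (adjusted p = 0.000396) and by 4.69 between 5 d and 0 d (adjusted p = 1.32e-06) on the log2 scale. For CP26 (gene16141) these differences were 0.78 and -0.67, and neither passed (adjusted p = 0.0183 and 0.0271).

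**Figure D5:**
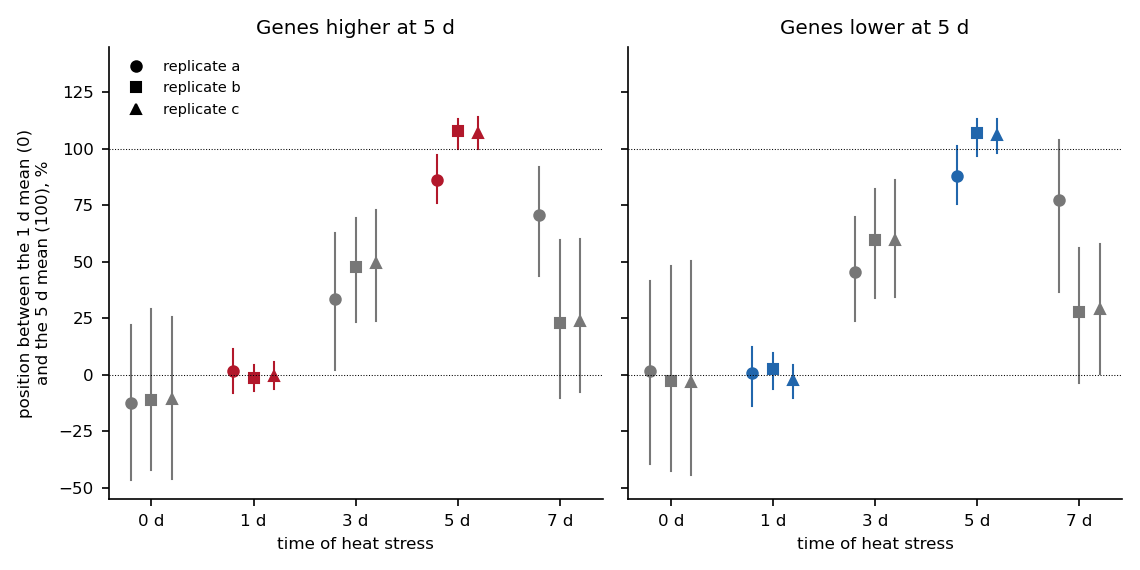
Position of each library between the 1 d mean (0) and the 5 d mean (100) for the 196 genes higher (left) and 165 genes lower (right) at 5 d; symbols are medians over genes for replicates a, b and c, and bars span the middle part of the genes (between the quartiles). The 0 d libraries lie near 0, the 3 d libraries at 33.7% to 59.7%, and at 7 d replicate a lies near the 5 d level and b and c nearer the 1 d level.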

How the data were processed

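Leaf mRNA was sequenced on Illumina instruments. Per the labels and the study's methods, the authors trimmed reads with Trimmomatic 0.36, checked them with FastQC, mapped them with Bowtie 2 and TopHat 2, and deposited FPKM values per gene from Cufflinks. The genome build is not given in the sources used here. Gene counts were not used, and low FPKM gave only a rough depth, of 0.702 to 1.02 times that of replicate b at 1 d, since few genes shared the commonest step. Cufflinks divides reads among similar genes, which affects near-identical copies.

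Values were tested as log2(FPKM + 1) with limma 3.58.1 in R 4.3.3 (eBayes with an intensity trend). The fit held the 12 libraries at 0 to 5 d with the day as sole term, leaving 8 residual degrees of freedom. Fold changes are on that scale, which understates those of low genes. Genes tested had 1 FPKM or more in 3 or more libraries. Calls needed a difference of at least 2-fold with an adjusted p (Benjamini-Hochberg) no higher than 0.01. The script was tested on simulated data with independent, normally distributed libraries. There 181 of 200 well expressed genes (90.5%), changed by 2 on the log2 scale, were recovered. Smaller changes, low genes and the likeness of b and c were not simulated, so this is not the power of the real comparison. Tables and exact tests used Python 3.11.15 with pandas 2.3.3 and scipy 1.17.1.

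Products and the 42 pathway lists came from the study's supplementary tables, which describe 1241 genes (72 of the 361 called); 7 pathway lists were shortened there. The rule for named genes took the 15 largest described rises and falls, the 3 largest and 3 most abundant in each direction, the extreme called members of each list, all described chaperone and HSF genes and the genes the study names, 108 in all, of which 105 passed the filter and were tested and 62 were called; the text gives values for those the results turn on and counts for the rest. The genes, lists and tests were chosen with earlier results of these data known. Alternatives were another pseudocount, filter, scaling, fit, trend, block and threshold, and leaving out libraries. Fold changes and p-values of the study's own comparisons were not used.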

Additional observations from a re-analysis of the deposited data

How the results depend on the processing

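The counts of 196 genes higher and 165 lower at 5 d changed with the libraries fitted and the thresholds. With the 6 libraries fitted alone they were 100 and 75. Leaving out a replicate letter at every day gave 0 to 650 higher and 0 to 810 lower: the highest without a, 1 and 1 without b, and 0 and 0 without c, where 2510 genes had an unadjusted p under 0.05. Leaving out 1 of the 6 libraries gave 61 to 298 higher and 40 to 313 lower. With b and c averaged into 1 value per day, an alternative chosen after seeing the data, the counts were 0 and 0, with 2599 genes at an unadjusted p under 0.05. Looser rules gave 399 and 417 (adjusted p of 0.05 or less), 356 and 244 (no minimum fold change) and, added after seeing the data, 539 and 597 genes whose libraries did not overlap and whose fold was 2 or more. Median-of-ratios scaling gave 175 and 208 and quantile normalization 188 and 203, so that the share of higher genes among the calls went from 54.3% to 45.7% and 48.1%.

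A pseudocount of 0.1 gave 180 and 152, no filter on low FPKM 157 and 117, all 15 libraries 154 and 125, and no intensity trend 191 and 157. None of the 361 genes changed sign in these fits where it was tested, which their lack of overlap between the days fixed in advance. The median difference between 7 d and 3 d of the genes higher at 5 d turned from -0.0292 to 0.053 with median-of-ratios scaling. Of the 105 named genes tested, 19 of the called ones passed in all 6 fits without 1 library. The depth of the libraries limits the genes under about 1 FPKM, for which values are steps of few reads.

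Libraries with the same letter hardly deviated together between 1 d and 5 d (correlations of deviations from the day's mean 0.074 for a, 0.043 for b and 0.07 for c), and the main fit used no pairing by letter. With 3 libraries per day, these correlations cannot exclude an offset that libraries of a letter share. The letter as a replicate block gave 188 and 131 genes, and a block of a against b and c 257 and 212.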
